A study of Mus musculus with 6 samples.

Results

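The alpha and beta tubulin isotype genes described here are 10 genes chosen by symbol: the beta genes Tubb3, Tubb2a, Tubb2b, Tubb4a, Tubb5 and Tubb6, and the alpha genes Tuba1a, Tuba1b, Tuba1c and Tuba4a. All 10 were among the 17971 genes of the expression table, and all 10 had enough counts to be tested, as did 14338 genes in all. Alpha and beta tubulin pair into the dimer from which microtubules are built. Tuba1a, Tuba1b and Tuba1c lie near each other on chromosome 15, and Tubb2a and Tubb2b on chromosome 13. Mammals carry several genes for each chain, whose proteins differ mainly in the acidic tail at the C-terminal end, where enzymes add or remove amino acids. Sensory neurons of the dorsal root ganglion send long axons to the skin, muscle and spinal cord, and tubulin is a main component of those axons.

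RNA-seq was done on dorsal root ganglia, the clusters of sensory neurons and glia beside the spinal cord, of male mouse embryos at E13.5. The 3 cKO libraries came from Wnt1-cre+/-;Ybx1fl/fl embryos, in which Cre acts in the neural crest lineage, and the 3 Ctrl libraries came from Ybx1fl/fl littermates without Cre. Both groups therefore carried floxed Ybx1. No group had Cre with intact Ybx1, so an effect of Cre and one of the deletion cannot be told apart. The Ybx1 protein binds nucleic acids through a cold-shock domain. It stood at 927, 809 and 817 CPM (counts scaled to the library size, with TMM factors) in Ctrl and at 137, 122 and 108 CPM in cKO (log2 fold change -2.80, SE 0.10, edgeR adjusted p 8.42e-08), so each library went with its genotype label. Depth was 16464264 to 17446385 estimated counts per library. The sensory neuron genes Isl1, Pou4f1 and Prph were present in every library, at 343 TPM or more, 87.4 TPM or more and 1808 TPM or more. In cKO replicate 1, 8 red blood cell genes took 5.90% of all TPM, against 1.62% to 2.75% in the other 5 libraries. In bulk ganglia, fewer cells of a type and less RNA per cell cannot be told apart.

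The start of the coding sequence is shown first because it is the regulatory stretch that tubulin mRNAs share. When free dimer is in excess, the first amino acids of a new tubulin chain are recognised on the ribosome, through the factor Ttc5, and the mRNA is degraded. The first 30 coding bases of 5 members were read from GENCODE M21 transcripts (GRCm38), with the first 4 codons in capitals. In the alpha genes an intron follows directly after the start codon, so these runs are spliced.
Tuba1a: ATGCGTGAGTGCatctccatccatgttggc
Tuba1b: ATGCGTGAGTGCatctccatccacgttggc
Tubb3: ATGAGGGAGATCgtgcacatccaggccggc
Tubb5: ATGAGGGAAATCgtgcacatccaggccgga
Tubb4a: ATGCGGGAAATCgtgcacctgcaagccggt
The start codons lie at chr15:98953451-98953453 in Tuba1a, chr15:98934333-98934335 in Tuba1b, chr8:123411606-123411608 in Tubb3, chr17:35838051-35838053 in Tubb5 and chr17:57087511-57087513 in Tubb4a. Tubb3 lies on the plus strand and the other 4 on the minus strand. The first 12 bases were the same in Tuba1a, Tuba1b and Tuba1c and different in Tuba4a. Tubb2a, Tubb2b, Tubb3, Tubb4a and Tubb5 had 5 different spellings of them.

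The last coding bases are shown because the tail they encode is where the isotypes part and where enzymes add or remove amino acids. Of 4 members, 60 bases are given, with the last sense codon and the stop codon in capitals.
Tuba4a: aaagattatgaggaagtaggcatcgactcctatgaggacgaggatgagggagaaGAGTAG
Tubb3: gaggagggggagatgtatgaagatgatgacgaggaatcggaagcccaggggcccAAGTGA
Tubb5: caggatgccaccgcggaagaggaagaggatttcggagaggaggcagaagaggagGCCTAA
Tubb4a: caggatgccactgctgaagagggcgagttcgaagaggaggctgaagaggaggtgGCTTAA
They lie at chr1:75215622-75215681 (Tuba4a), chr8:123421623-123421682 (Tubb3), chr17:35834982-35835041 (Tubb5) and chr17:57080690-57080749 (Tubb4a), each within the last coding exon. Most alpha tubulins are made with a last tyrosine, which is removed and returned, and the Tuba4a sequence does not end in a codon for it. Glutamate codons (GAA or GAG) made up 7 of the last 18 sense codons in Tuba4a, 6 in Tubb3 and 9 each in Tubb5 and Tubb4a. Over the same 60 bases, Tubb2a and Tubb2b differed at 3.

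Likeness between members bears on the counts. Over the whole coding sequence, Tuba1a and Tuba1b were 98.3% identical, Tuba1b and Tuba1c 97.9%, and Tubb2a and Tubb2b 96.5%. Of all 100-base windows of the Tuba1a transcript, 65.1% also occurred in a transcript of another gene, as did 69.5% for Tuba1b, 53.4% for Tuba1c, 36.9% for Tubb2a and 27.8% for Tubb2b. None did for Tubb3, Tubb4a, Tubb5, Tubb6 or Tuba4a. The deposited counts of Tuba1a, Tuba1b, Tuba1c, Tubb2a, Tubb2b and Tuba4a had fractional parts in all 6 libraries, and those of Tubb3, Tubb4a, Tubb5 and Tubb6 in none. The split of reads between Tuba1a, Tuba1b and Tuba1c, and between Tubb2a and Tubb2b, is therefore uncertain, and results for their sums are given with them. The windows of Tuba1a, Tuba1b and Tuba1c occurred in 11, 11 and 10 other genes, near copies included, and those of Tubb2a and Tubb2b in 2 each. Reads may thus also be shared with genes outside the sums. In the RefSeq annotation Tuba1b also overlaps the long noncoding RNA gene Gm41396, and Tuba4a overlaps Stk16 and A630095N17Rik.

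Tubulin mRNA was abundant in these ganglia, and Tuba1a led it. In TPM (transcript level per length, scaled to the same total in each library), the 10 genes together made up 3.04% to 3.15% of the total in Ctrl and 2.81% to 3.03% in cKO. Tuba1a (chromosome 15, 98949847 to 98953501, GRCm38.p6), the main alpha tubulin of growing neurons, had the highest mean TPM of all 17971 genes. It held 16803, 16577 and 15901 TPM in Ctrl and 14601, 15809 and 14661 in cKO, and it took 85.4% to 86.8% of the TPM of the 4 alpha genes in every library. The beta side was shared more evenly. Tubb3, the neuron-specific beta tubulin, Tubb2b, a beta tubulin of young neurons, and Tubb5, which is also made by dividing cells, had mean levels of 3266, 3255 and 3072 TPM over the 6 libraries.

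The order of the mean levels ran on with Tuba1b (2441 TPM), an alpha tubulin of most cell types, Tubb2a (1484 TPM), found in neurons, and Tubb4a (692 TPM), known from neurons and myelinating glia. Tuba1c (45.2 TPM), Tubb6 (34.7 TPM) and Tuba4a (14.9 TPM) came last. Tubb3 and Tubb2b overlapped in range, with Tubb3 above in 4 of 6 libraries. Tubb2b and Tubb5 overlapped too, although Tubb2b was above Tubb5 in each library. All other neighbours in this order were apart in range.

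**Figure D1:**
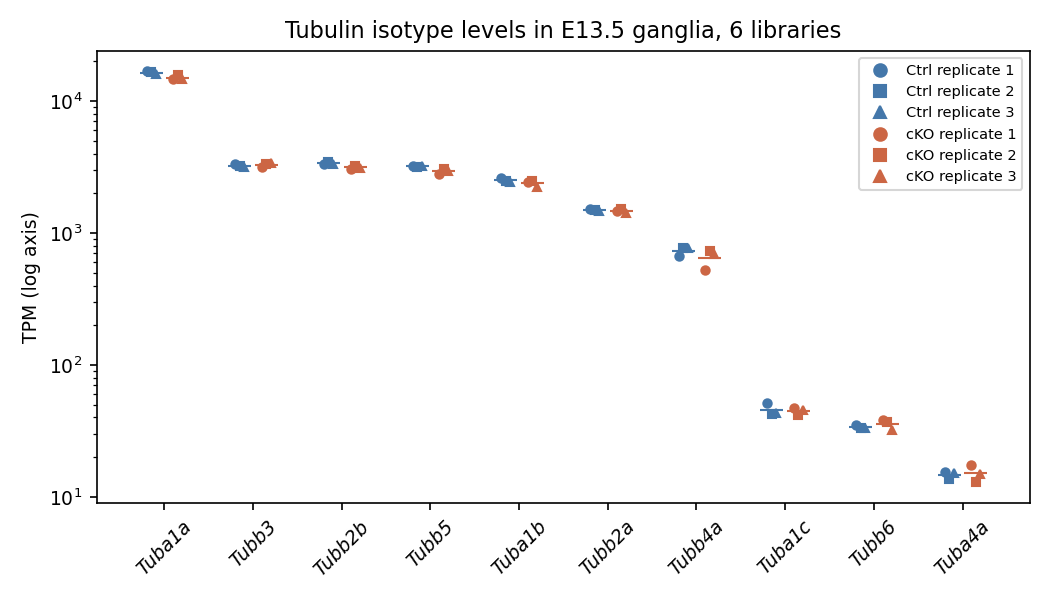
TPM on a log axis for the 10 tubulin genes, ordered by mean level. Each point is 1 library and each short line a group mean of 3 libraries. Tuba1a lies above all others, 6 genes have mean levels above 1000 TPM, and 3 are under 50 TPM in the mean.

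The comparison of cKO with Ctrl asked which of these transcripts differ when Ybx1 is deleted. Tubulin genes differed little. In the model without the replicate number, 0 of 10 members were called at an edgeR adjusted p under 0.05, in a comparison that called 0.481% of all tested genes. At an unadjusted p under 0.05 this test gave 1 of 10 members, Tubb4a, and 10.7% of all tested genes. DESeq2 and limma-voom also called none of the 10, where they called 1.28% and 0.425% of all tested genes. With the replicate number as a block, 3 of 10 were lower and none was higher, where 3.56% of all tested genes were called lower in that model. These 3 were Tuba1a, Tubb5 and Tubb4a. Log2 fold changes were negative for 7 members and positive for 3, with a median of -0.07, beside a median of 0.0044 and 48.6% negative values over all tested genes.

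Tuba1a stood at 13069, 11875 and 11530 CPM in Ctrl replicates 1 to 3 and at 11549, 11148 and 10314 CPM in cKO replicates 1 to 3. Each cKO library was below the Ctrl library of the same number, but the groups overlapped, since cKO replicate 1 was just above Ctrl replicate 3. Without the block the log2 fold change was -0.14 (SE 0.08), with an edgeR adjusted p of 0.594, and without Ctrl replicate 1 it was -0.09. With it the fold change was -0.14 (SE 0.03; edgeR adjusted p 0.0184), a difference of -9.47%. Summed with its near copies Tuba1b and Tuba1c, it held 15094, 13644 and 13313 CPM in Ctrl and 13488, 12894 and 11884 CPM in cKO. The groups overlapped by the same pair of libraries. That sum fell by 0.14 on the log2 scale with the block (SE 0.03, edgeR adjusted p 0.0248) and was not called without it (edgeR adjusted p 0.633).

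Tubb5 (chromosome 17, 35833920 to 35838301), whose reads are not shared with a near copy over 100 bases, had 4521, 4127 and 4250 CPM in Ctrl and 3988, 3938 and 3755 CPM in cKO. All cKO libraries lay below all Ctrl libraries. It differed by -0.14 ± 0.08 (SE) on the log2 scale, and the edgeR adjusted p was 0.555. With the block the value was -0.14 (SE 0.04) and the edgeR adjusted p 0.0370.

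Tubb4a (chromosome 17, 57080061 to 57087600) stood at 704, 747 and 753 CPM in Ctrl and 562, 692 and 665 CPM in cKO. The groups did not overlap, and cKO replicate 1 was the lowest. Without that library the log2 fold change was -0.11 (no block). With a log2 fold change of -0.20 (SE 0.09), it was not called without the block (edgeR adjusted p 0.451) and was called with it (-0.20, SE 0.05, edgeR adjusted p 0.0201), a difference of -13.2%.

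Leaving out pairs of libraries changed these calls. In the blocked model, 1 member was called without both libraries numbered 1 (Tubb4a, edgeR adjusted p 0.0387), none without both numbered 2, and 2 without both numbered 3 (Tuba1a and Tubb4a, edgeR adjusted p 0.0448 and 0.0203). The call of Tubb5 was lost in each of these and with library totals in place of TMM scaling (edgeR adjusted p 0.0722 to 0.125). Without both numbered 2, Tubb4a had an edgeR adjusted p of 0.0628 and Tuba1a one of 0.0942.

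Tubb2b (chromosome 13, 34127008 to 34130354) held 3228, 3095 and 3057 CPM in Ctrl and 3043, 2864 and 2752 CPM in cKO. Its groups did not overlap, yet it passed neither model (-0.12 ± 0.08 on the log2 scale, SE; edgeR adjusted p 0.661, or 0.0846 with the block). Together with Tubb5 and Tubb4a it made 3 of 10 members whose cKO libraries were all below the Ctrl libraries in CPM, where 8.77% of all tested genes showed this. In TPM the same count was 3 of 10, with Tuba1a in place of Tubb4a, against 5.77% of tested genes. Tubb2a (chromosome 13, 34074278 to 34078008), its near copy, held 1199, 1087 and 1079 CPM in Ctrl and 1170, 1086 and 1017 CPM in cKO. Its groups overlapped and its log2 fold change was -0.04 (SE 0.08). The sum of both was not called with the block (log2 fold change -0.10, SE 0.04, edgeR adjusted p 0.151).

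Tubb3 (chromosome 8, 123411553 to 123422015) was not called in either model. It held 2890, 2566 and 2553 CPM in Ctrl and 2773, 2622 and 2663 CPM in cKO, and the cKO values lay within the range of the Ctrl values. The fitted difference was 0.01 on the log2 scale (SE 0.08), with an edgeR adjusted p of 0.982, and with the block 0.01 (SE 0.04) and 0.915. Within pairs it differed by -0.06, 0.03 and 0.06 on the log2 CPM scale.

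The remaining 4 members were not called in either model. Tuba1b (chromosome 15, 98931429 to 98934390) was lower in cKO in each pair (log2 fold change -0.09, SE 0.09), with 1972, 1730 and 1742 CPM in Ctrl and 1891, 1708 and 1530 CPM in cKO. Its log2 fold change was -0.02 without cKO replicate 3 and -0.02 without Ctrl replicate 1. Tuba1c (chromosome 15, 99029891 to 99038105), a broadly made alpha tubulin, had 39.3 to 52.0 CPM in Ctrl and 38.0 to 48.2 CPM in cKO (log2 fold change -0.05, SE 0.12). Tubb6 (chromosome 18), a minor beta tubulin in neurons, had 26.7 to 30.2 CPM in Ctrl and 25.2 to 33.7 CPM in cKO (log2 fold change 0.07, SE 0.11). Tuba4a (chromosome 1, 75214972 to 75221261), the alpha gene without the tyrosine codon, had 13.7 to 16.7 CPM in Ctrl and 12.8 to 19.5 CPM in cKO (log2 fold change 0.04, SE 0.14). The groups of these 4 genes overlapped. Across the family, 6 of 10 members were lower in cKO in CPM in each of the 3 pairs, as were 20.3% of all tested genes. They include the near copies Tuba1a with Tuba1b and Tubb2a with Tubb2b, so they are not 6 separate observations. They rank from 1 (Tuba1a) to 126 (Tubb4a) in mean CPM. No share was computed for genes of like level, here or for the other counts of members. Among these 6, Tubb2a and Tuba1b differed by only -0.0024 and -0.0183 on the log2 CPM scale in pair 2. In TPM both were slightly higher in cKO in that pair (0.0202 and 0.0043 on the log2 scale).

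**Figure D2:**
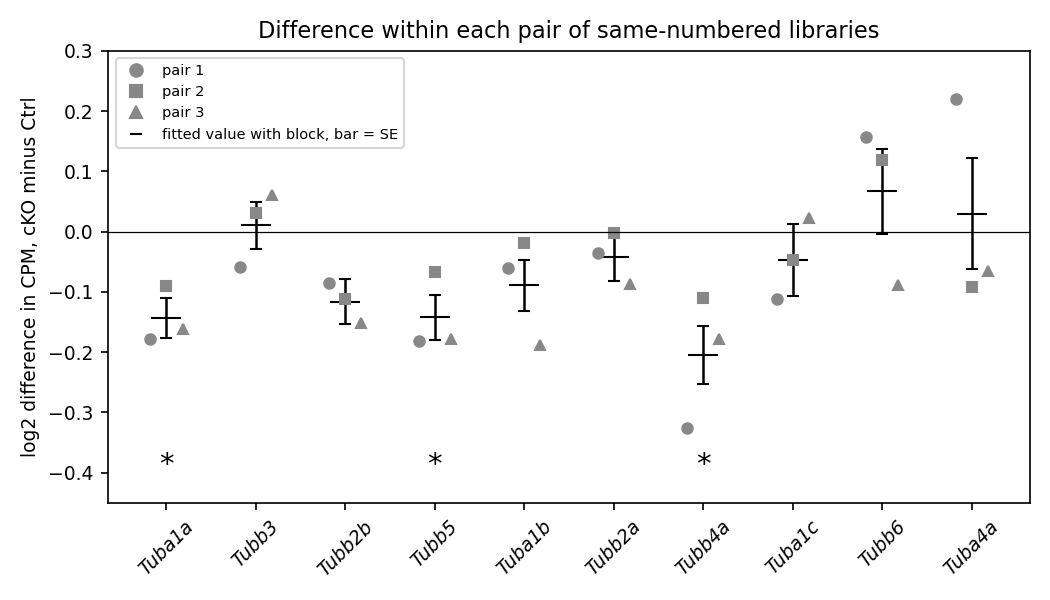
Log2 difference in CPM, cKO minus Ctrl, for each pair of same-numbered libraries (grey symbols), with the fitted value of the blocked model and its SE in black. Asterisks mark Tuba1a, Tubb5 and Tubb4a, called in the blocked model. Tubb3 has pairs on both sides of 0, and Tubb4a reaches -0.33 in pair 1.

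Summed over the 10 genes, tubulin stood at 31539, 31237 and 30446 TPM in Ctrl and 28127, 30271 and 28552 TPM in cKO. The mean was 31074 ± 564 in Ctrl and 28983 ± 1136 in cKO (SD, n = 3; exact permutation test, two-sided, p = 0.1, the smallest that 3 against 3 libraries can give). The groups did not overlap in TPM. TPM shares 1 total per library, and in cKO replicate 1 red blood cell genes took the larger part given above. With the 8 red blood cell genes taken out of the total, the sum was 31307 to 32362 TPM in Ctrl and 29329 to 30769 TPM in cKO, still without overlap. In TMM-scaled CPM the sums overlapped (25049 to 27682 in Ctrl, 22776 to 25075 in cKO; exact permutation p = 0.2). The 3 differences within pairs were all negative, a design in which the exact sign-flip test cannot go below p = 0.25.

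The alpha genes summed to 18413 to 19460 TPM in Ctrl and 16942 to 18337 TPM in cKO, and the beta genes to 12033 to 12138 and 11021 to 11934 TPM. Neither sum overlapped between the groups in TPM (exact permutation p = 0.1 each). In TMM-scaled CPM the alpha sums overlapped and the beta sums did not. The beta share of the 10 genes was 38.3%, 38.9% and 39.5% in Ctrl and 39.2%, 39.4% and 40.7% in cKO. It was higher in cKO in each pair, but the groups overlapped (38.9 ± 0.612% against 39.8 ± 0.793%, SD, n = 3; exact permutation p = 0.3).

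A ratio of 2 genes within a library does not depend on how libraries are scaled. Relative to Tubb3, chosen as the reference after its values were seen, 3 abundant isotypes were lower in every cKO library than in any Ctrl library. The share of all tested genes for which this holds was not computed, so the count is not read as particular to tubulin. The log2 TPM ratio of Tuba1a to Tubb3 was 2.33, 2.37 and 2.33 in Ctrl and 2.21, 2.24 and 2.11 in cKO, a difference of -0.15. For Tubb5 the ratio was -0.06, -0.02 and 0.04 in Ctrl and -0.18, -0.12 and -0.21 in cKO, also a difference of -0.15. Tubb2b to Tubb3 went from -0.01, 0.10 and 0.09 to -0.04, -0.04 and -0.12, a difference of -0.13. Each of these has an exact permutation p of 0.1, the smallest possible, and 0.3 after Benjamini-Hochberg adjustment over the 9 ratios. The ratios of the other 6 members to Tubb3 overlapped between the groups. On the beta side, Tubb3 took 27.6%, 26.5% and 26.3% of the TPM of the 6 beta genes in Ctrl. In cKO it took 28.6%, 28.0% and 29.3% (exact permutation p = 0.1, or 0.5 adjusted over 10 shares). These shares come from the same TPM values as the ratios and are not a separate result. The share of Tubb5 was lower without overlap, with means of 26.6% in Ctrl and 25.5% in cKO (exact permutation p = 0.1, or 0.5 adjusted).

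**Figure D3:**
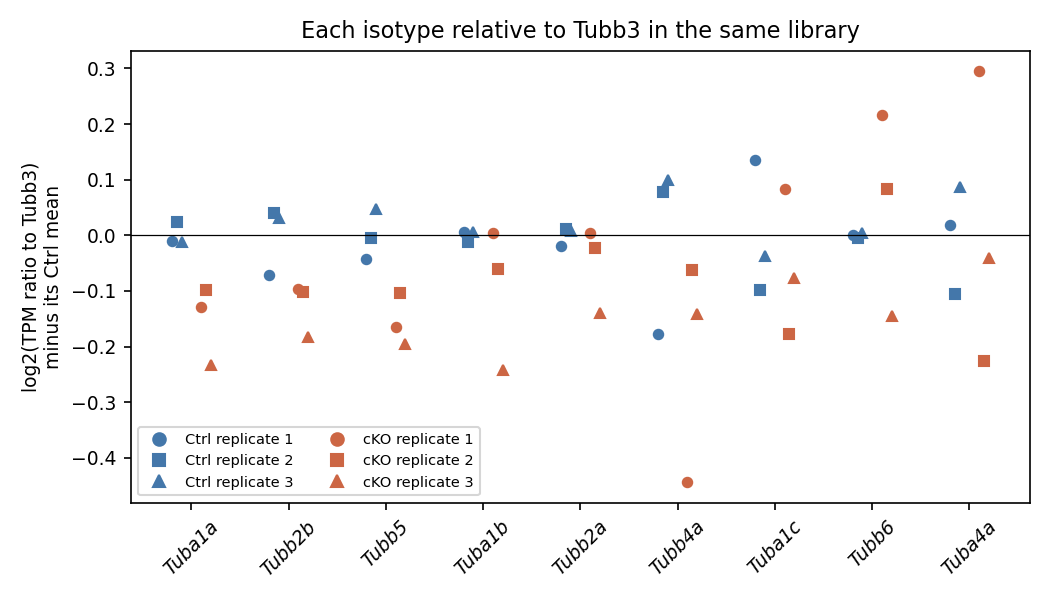
Log2 TPM ratio of each isotype to Tubb3 in the same library, with the Ctrl mean of each ratio set to 0. Each point is 1 of 6 libraries. For Tuba1a, Tubb2b and Tubb5 all cKO points lie below all Ctrl points; the other 6 overlap.

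Patterns over the 6 libraries were compared by the root mean square difference of log2 CPM, each gene centred on its own mean, among 10621 other genes of at least 10 CPM. Nearest to Tubb3 were Txnl4a, Pls3 and Creb3 (0.01 each), and the nearest of the other 9 members, Tubb2a, ranked at 631 (0.05). Tubb5 had Fam32a, Osgin2 and Nsg1 nearest (0.02 each), with Tubb2b at rank 35 (0.03) and Tuba1a at rank 55 (0.04). Tubb5 and Tubb3 were further apart, at 0.09.

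The genes that fold, modify and organise tubulin, together with a list of other tubulin genes, were taken as 9 lists of 79 genes. Of these, 70 were tested. Without the block none was called by edgeR, and 6 of 70 had an unadjusted p under 0.05, beside 10.7% of all tested genes. DESeq2 called 2 of 70, where it called 1.28% of all tested genes, and limma-voom called none. With the block, 2 were lower and 1 was higher, or 4.29% of the 70, beside 5.33% of all tested genes. The median log2 fold change of the 70 was -0.0018.

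In the lists of genes for tyrosine, glutamate and glycine on tubulin tails, 2 genes were lower with the block. Ttl, the ligase that puts the C-terminal tyrosine back on alpha tubulin, had 67.8, 69.8 and 68.9 CPM in Ctrl and 53.6, 57.1 and 54.0 CPM in cKO. The groups did not overlap. The log2 fold change was -0.33 (SE 0.06), with an edgeR adjusted p of 0.0594, and of 0.0023 with the block. Ttll12, a member of the Ttl-like family, had 70.2, 64.7 and 63.8 CPM in Ctrl and 48.3, 54.0 and 53.1 CPM in cKO, again without overlap. Its log2 fold change was -0.36 (SE 0.07), with an edgeR adjusted p of 0.0658, and of 0.0039 with the block. Both calls of the blocked model held without each numbered pair in turn (edgeR adjusted p 0.000127 to 0.0217 for Ttl and 0.00051 to 0.00954 for Ttll12). DESeq2 called both without a block (adjusted p 0.0164 and 0.0151). Over the 22 alternatives, Ttl and Ttll12 were each called in 8. With library totals and no block they were not called (edgeR adjusted p 0.0842 and 0.0907). Limma on log2(TPM + 1) did not call them either (adjusted p 0.348 and 0.331).

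In the tyrosination list of 4 tested genes, the other 3 were not called in either model. Vash1 and Vash2, the enzymes that remove the tyrosine, had log2 fold changes of 0.07 (SE 0.09) and 0.01 (SE 0.07), and Svbp, their partner, one of -0.19 (SE 0.09). Of 16 tested genes in the glutamate and glycine list, Ttll12 was the 1 called. The list's gene of highest CPM, Ttll7, a glutamate ligase for beta tubulin, had a log2 fold change of -0.01 (SE 0.08). For acetylation, the acetyltransferase gene Atat1 (-0.16, SE 0.07) and the deacetylase gene Sirt2 (0.11, SE 0.07) were not called, nor was Hdac6. The Atat1 groups did not overlap, with the cKO libraries lower.

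Folding genes had small differences. None of 14 chaperonin and prefoldin genes, whose complexes fold new tubulin chains, was called in either model; their median log2 fold change was -0.02, and those of highest CPM, Tcp1 and Cct2, had -0.03 (SE 0.08) and -0.07 (SE 0.08). Among 7 cofactor genes that join alpha to beta, Arl2, a small GTPase that works with them, was higher with the block. It had 36.9, 33.8 and 33.3 CPM in Ctrl and 45.5, 43.8 and 38.4 CPM in cKO, without overlap. The log2 fold change was 0.30 (SE 0.08), with an edgeR adjusted p of 0.182, and of 0.0123 with the block. With the block but without both libraries numbered 2, the edgeR adjusted p was 0.182 and the call was lost. Tbcd and Tbcb, the cofactors of highest CPM, differed by 0.02 (SE 0.07) and -0.10 (SE 0.09).

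For the decay of tubulin mRNA on excess dimer, Ttc5, which reads the chain start shown above, had 62.4, 61.8 and 62.4 CPM in Ctrl and 57.3, 55.8 and 58.8 CPM in cKO. The groups did not overlap in CPM but did in TPM (64.1 to 67.9 in Ctrl, 57.8 to 66.0 in cKO). Ttc5 was not called in either model (log2 fold change -0.12, SE 0.06, edgeR adjusted p 0.561, or 0.249 with the block). None of 3 genes of this list was called, nor any of 6 other tested tubulin genes, 9 nucleation genes or 8 severing genes. Scaper, which acts after Ttc5, had a log2 fold change of -0.08 (SE 0.08). Of the other tubulins, Tubb4b differed by 0.05 (SE 0.07) and the gamma tubulin gene Tubg1 by 0.07 (SE 0.08). The ring complex genes Tubgcp3 and Tubgcp2, which start microtubules, differed by 0.03 and 0.06 (SE 0.07 each). The severing genes Spast and Katnal1 differed by -0.07 each (SE 0.06 and 0.09).

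**Figure D4:**
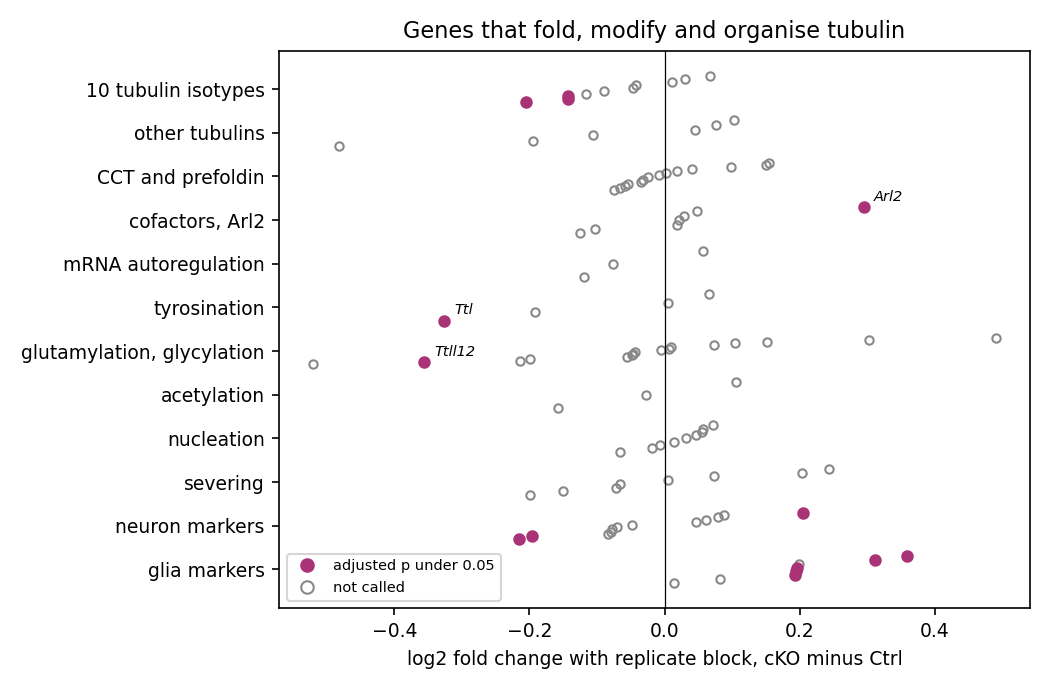
Log2 fold change, cKO minus Ctrl, in the blocked model for each tested gene of the tubulin lists and of neuron and glia markers. Filled points had an edgeR adjusted p under 0.05. Ttl and Ttll12 lie at -0.33 and -0.36 and Arl2 at 0.29.

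Markers of the cell types in the ganglion moved in part with the groups. The summed level of 12 neuron markers was 12141 to 12748 TPM in Ctrl and 11700 to 13396 TPM in cKO, which overlapped, and none was at 0. With the block 2 were lower, the transcription factor gene Isl1 (log2 fold change -0.21, edgeR adjusted p 0.0083) and Stmn2, for a protein that binds tubulin dimers (-0.20, 0.0086), and 1 was higher, the growth cone gene Gap43 (0.21, 0.0145). All 3 calls were lost in the blocked model without both libraries numbered 2 (edgeR adjusted p 0.0901 to 0.194). The 8 glia markers summed to 2420 to 2455 TPM in Ctrl and 2579 to 2603 TPM in cKO, with none at 0. With the block 5 were higher, among them the myelin protein gene Mbp (log2 fold change 0.31, edgeR adjusted p 0.0033), the adhesion gene Cdh19 (0.36, 0.0197) and the transcription factor gene Sox10 (0.19, 0.0272). Called higher among all tested genes were 1.76%. Without the block edgeR called none of these markers, and DESeq2 called Mbp (adjusted p 0.0296). In the blocked model the call of Sox10 was lost without both libraries numbered 2 and without both numbered 3 (edgeR adjusted p 0.277 and 0.0979). Without the block, Sox10 moved from 0.19 to 0.12 without Ctrl replicate 3, and Cdh19 from 0.35 to 0.23 without Ctrl replicate 1.

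Of 8 macrophage markers, which summed to 84.8 to 97.7 TPM in Ctrl and 105 to 141 TPM in cKO, C1qb, for a complement subunit, was higher with the block (0.43, edgeR adjusted p 0.0133). Without cKO replicate 1 and without the block, C1qb differed by 0.26, against 0.44 with all libraries. Markers of dividing cells (8), mesenchyme (8), endothelium (6), red blood cells (8) and muscle (6 tested) had no member called in either model. Mki67 and Top2a, of dividing cells, differed by 0.07 and 0.06 on the log2 scale (SE 0.07 each). No marker of any list was at 0 in all libraries. The part of these shifts in the tubulin values was not tested.

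A CCAAT box on either strand, CCAAT or ATTGG, is the core of the Y-box for which Ybx1 was named. Promoters from 250 bases before to 50 after the start, in the RefSeq table of GRCm38.p6, were matched for 8 members, and 4 held it, beside 37.4% of all 32851 promoters of that length. The windows of 2 members are shown because one was lower with the block and the other was not called, with the motif in capitals.
Tuba1a: gtcgcttgcaCCAATcaccactctc
Tubb3: gcgctccagcATTGGcccgcagcgc
They lie at chr15:98953663-98953687 on the minus strand and chr8:123411466-123411490 on the plus strand, 176 and 77 bases before the start. Tubb5 and Tuba1c also held the motif. It is a match of letters and does not show binding.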

How the data were processed

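For each gene and library the table deposited by the authors holds an estimated count, which is not normalized, and a TPM value, per the file headers. The submitters' processing notes name RSEM 1.3.1, HISAT2 2.2.1, Bowtie2 2.4.5 and the build GRCm38 (mm10), with no role or order. Whether strand was used in counting was not stated, so reads of overlapping antisense genes could not be separated. Counts were rounded, filtered with filterByExpr (14338 of 17971 genes kept), scaled by TMM and tested in R 4.3.3 with edgeR 4.0.16 (robust quasi-likelihood fit, two-sided). Genes were called at a Benjamini-Hochberg adjusted p under 0.05 over all tested genes. Each SE is the fold change over the root of its F value. Levels are compared between genes in TPM. Single genes are compared between libraries mainly in CPM, and sums, shares and ratios in TPM, with CPM where stated. Marker sums are given in TPM only, without taking red blood cell genes out of the total. The samples are described as biological samples, and whether embryos were pooled was not stated.

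Same-numbered libraries share the start of their sample code, and controls are described as littermates. Across genes, the deviations from the group mean correlated between libraries of the same number at 0.383, 0.22 and 0.189, so the numbers were taken to pair the samples. Values between libraries of different numbers are not given here, and the labels do not state that the number marks a litter. Blocked values are printed where they change a call. The scripts were tested on simulated data.

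The members and lists were chosen with earlier results of these data known. Genes are named by rule: all members, Ybx1, up to 4 called genes of each list (the 2 of highest CPM where none was called), and the 3 genes nearest to Tubb3 and to Tubb5. Named after their values were seen were Vash1, Vash2, Svbp, Ttll7, Hdac6, Tbcd and Tbcb, and Pou4f1 and Prph as tissue checks. Alternatives were DESeq2 1.42.0 and limma 3.58.1 tests, other scalings and filters, limma on log2(TPM + 1) and log2(TPM + 0.1), the block, and leaving out each library or pair; summed copies, ratios to Tubb3 and TPM without red blood cell genes were added after seeing the data. Figures were drawn with matplotlib 3.10.9. Of the lists, Tuba3b, Tubal3 and Matcap1 were not analysed here. Some results under the naming rule are not reported here.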

Additional observations from a re-analysis of the deposited data

How the results depend on the processing

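Over 220 values (22 alternatives for each of 10 members), 196 kept their direction and side of the threshold, 8 became called (all with the block; Tuba1a, Tubb5 and Tubb4a) and 16 changed sign, in 5 members that were not called. The number of members called was 0 without the block, 3 with it, and 2 with the block and library totals. In the blocked model it was 1, 0 and 2 without both libraries numbered 1, 2 and 3. Single libraries were left out only in the model without the block, and each removal gave 0. Over all genes, 69 were called, 764 with the replicate block and 799 with the block and library totals. The count was 44 with library totals, 183 with the DESeq2 test, 128 without a filter and 12 with limma on log2(TPM + 1) or log2(TPM + 0.1). Without both libraries numbered 1, 2 and 3 it was 731, 8 and 2, and with the block 1252, 260 and 836. Leaving out single libraries, without the block, gave 18 to 104. The summed TPM difference ranged from -2735 to -1663 TPM and the beta share difference from 0.410 to 1.18 percentage points on leaving out single libraries.

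Of the members that changed sign, Tubb3 ranged from -0.0227 to 0.0697 over the alternatives and was -0.0150, -0.0218 and -0.0227 without cKO replicate 1, Ctrl replicate 2 and Ctrl replicate 3. Without both libraries numbered 2 and 3 it was -0.0036 and -0.0162, and with the replicate block -0.0007 and -0.0143. Over single removals, Tubb2a ranged from -0.0944, Tuba1c from -0.1496, and Tubb6 and Tuba4a up to 0.1649 and 0.1637. Tubb2a was 0.0046 without cKO replicate 3 and 0.0097 without Ctrl replicate 1, Tubb6 -0.0427 without cKO replicate 1, and Tuba1c 0.0227 without cKO replicate 2 and 0.0880 without Ctrl replicate 1. Tuba4a was -0.1449 without cKO replicate 1, -0.0409 without Ctrl replicate 2, and without both libraries numbered 1 -0.0770, or -0.0783 with the block. For the ratios to Tubb3, single removals turned Tubb6 (-0.0307 without cKO replicate 1), Tuba1c (0.0039 and 0.0113 without cKO replicate 2 and Ctrl replicate 1) and Tuba4a (-0.1334 and -0.0435 without cKO replicate 1 and Ctrl replicate 2). The other ends of these ranges were 0.1496, -0.1264 and 0.1274. The cause of these changes was not tested. With library totals in place of TMM, 16 genes were higher and 28 lower, against 16 and 53. With the block these were 396 and 403 against 253 and 511.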
